A study of Homo sapiens with 346 samples.

Results

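The 10 genes EGFR, ERBB2, ERBB3, ERBB4, IGF1R, INSR, MET, MST1R, DDR1 and EPHB4, which encode receptor tyrosine kinases, were followed in single live and methanol-fixed cells. They were chosen by name. The HCT-116 table lists 9 of them among 28806 genes and the HepG2 table lists all 10 among 29551. ERBB4 was not analysed here in HCT-116. Receptor tyrosine kinases are membrane proteins that bind a ligand outside the cell and, once paired with another receptor, phosphorylate tyrosines on their own tails. Adaptors such as GRB2 and SHC1 dock there and pass the signal to the RAS-MAPK and PI3K-AKT cascades. In colon epithelium and its cancers EGFR and MET are known as drivers of growth, and in liver INSR carries the response to insulin and MET that to hepatocyte growth factor.

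Cells of HCT-116, a colorectal carcinoma line, and cells labelled HepG2, a line known from liver carcinoma, were sorted singly into plates and made into full-length cDNA libraries with Smart-seq2, which starts from the poly(A) tail and adds no molecular identifiers. The groups were 91 live and 92 fixed HCT-116 cells and 68 live and 83 fixed HepG2-labelled cells; fixed cells had been stored in 80% methanol for 1 week and rehydrated, and live cells came from the same cultures without fixation. Each deposited sample is 1 cell and no culture is named, so each line and treatment counted as 1 sample, no test was run and no p-value is given. Per the methods of the study the HepG2 experiment was run more than once, and the labels do not tell the runs apart. Fixed libraries were made a week after live ones, so fixation and library batch cannot be told apart.

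Total reads per cell had medians of 2.5 M (mega) reads live and 1.8 M fixed in HCT-116 and of 2.4 M and 2.0 M in HepG2-labelled cells, and the median number of genes above 0 TPM (the part of a cell's transcripts that a gene holds, corrected for transcript length) was 12031, 10359, 13887 and 12293 in the same order. Ribosomal RNA took a median of 24.6% of the TPM live and 7.60% fixed in HCT-116, and 5.72% and 2.39% in HepG2-labelled cells. The median gene had a log2 ratio of fixed to live of 0.16 in HCT-116 and 0.14 in HepG2, or −0.18 and 0.08 with ribosomal RNA left out, against which the values that follow can be read. Of 18 hepatocyte markers, 9 are listed in the HepG2 table and 0 were above 1 TPM in at least 50% of the cells of either HepG2-labelled group. Their summed level was 0.0955 TPM in the median live cell and 0 in the median fixed cell. ALB and AFP, both among the 18, have no listed value. Of 13 luminal breast markers, 11 passed the same limit in both HepG2-labelled groups and 4 did in both HCT-116 groups. Of 11 intestinal markers, CDX2 and EPCAM passed in HCT-116 and EPCAM in the HepG2-labelled cells. The data go against the liver label, so the cells are called HepG2-labelled here. Among the HepG2 columns, 1 live and 1 fixed hold equal values for all genes, and 8 columns in all, 1 live and 7 fixed, correlate above 0.95 with another.

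All 10 genes carry the catalytic loop, the stretch of the kinase that holds the aspartate needed for phosphate transfer. The loops of the genes on which the results turn are printed from the GRCh38 genome on the coding strand, with the 8 codons of the loop in capitals and the bases around them in lower case; they show how far the base composition of one shared segment differs among genes that differ in GC content overall. In ERBB3, known as a receptor with very weak kinase activity, the codon for the catalytic aspartate is absent.
ERBB2 (chr17:39725067-39725120, plus strand, exon 21): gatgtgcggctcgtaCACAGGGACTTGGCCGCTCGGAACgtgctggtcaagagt
ERBB3 (chr12:56097803-56097856, plus strand, exon 21): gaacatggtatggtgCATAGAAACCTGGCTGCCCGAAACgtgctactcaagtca
INSR (chr19:7122636-7122689, minus strand, exon 19): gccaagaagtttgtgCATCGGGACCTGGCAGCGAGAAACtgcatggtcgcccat
MET (chr7:116782054-116782097, plus strand, exon 18): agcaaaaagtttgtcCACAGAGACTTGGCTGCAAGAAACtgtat
MST1R (chr3:49891197-49891240, minus strand, exon 17): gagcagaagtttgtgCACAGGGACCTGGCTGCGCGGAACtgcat
DDR1 (chr6:30898131-30898184, plus strand, exon 16): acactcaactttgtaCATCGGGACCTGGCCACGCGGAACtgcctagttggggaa
All of these windows are coding sequence within a single exon of the reference transcript. The loop of MET has a GC content of 50%, with G or C at the third base of 4 of its 8 codons. In MST1R, the closest relative of MET, and in DDR1 the loop has a GC content of 70.8%, with G or C at the third base of 7 of 8 codons. The loop of EGFR, not printed, has the same values, although its reference transcript has a GC content of only 47.8%. That of EPHB4, also not printed, has 66.7% and 5 of 8 codons, with 62.6% in its transcript. The GC content of the loop thus did not follow that of the transcript in every gene.

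In HCT-116, ERBB2, MST1R and DDR1 were lower in fixed than in live cells by more than 2-fold in mean TPM, which is 3 of the 8 listed members with a mean of at least 1 TPM in either group. Of all 12426 genes at that level, 10.1% were lower past 2-fold and 3.81% higher, and 0 of the 8 members were higher. The median log2 ratio of the 9 listed members was −0.42, and 6 of 9 lay below 0. Over all genes with a mean of at least 1 TPM 39.6% did, and the 8 members at that level had a median of −0.54. In the HepG2-labelled cells 0 of 8 members were past 2-fold in either direction, against 11.3% of 13228 genes lower and 5.98% higher. There the median of the 10 listed members was −0.23, and 6 of 10 lay below 0, EGFR and MST1R among them. Both were under 1 TPM, whereas the 41.2% of all genes below 0 covers only genes of at least 1 TPM. The 8 members at that level had a median of −0.09. IGF1R in HCT-116 and EGFR and MST1R in HepG2-labelled cells stayed under 1 TPM in both groups and were given no call.

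**Figure D1:**
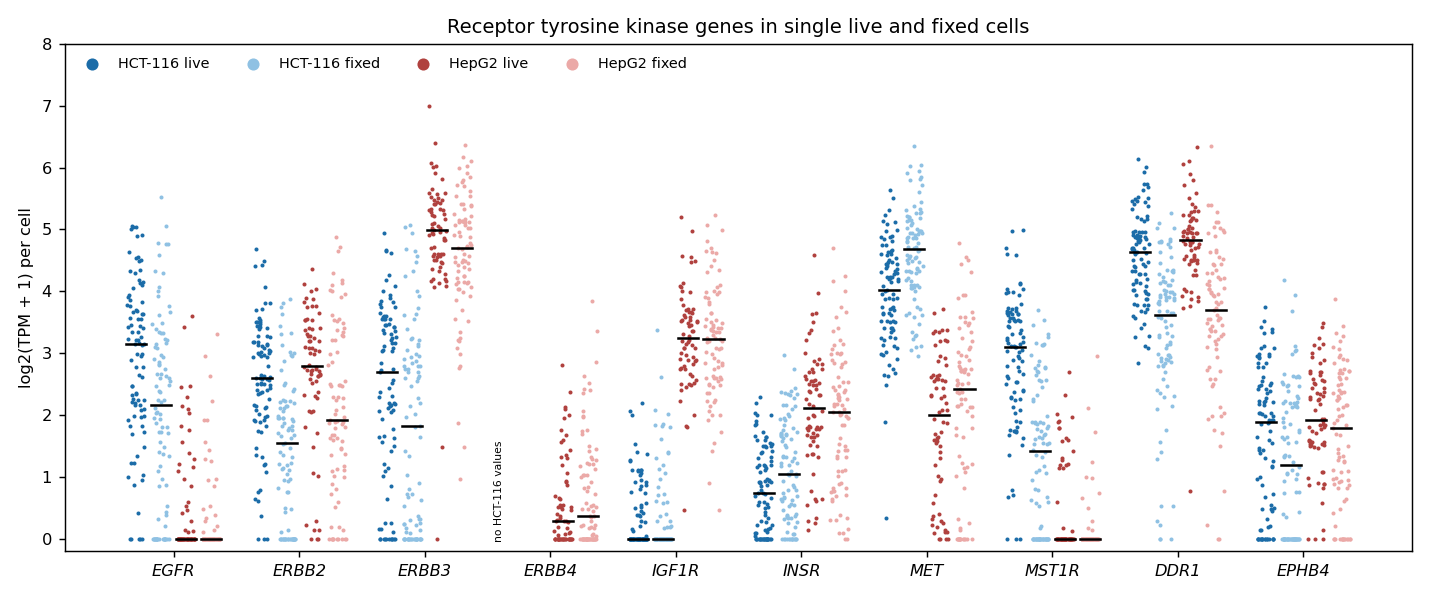
Level of each receptor gene in every cell, as log2(TPM + 1), with 1 point per cell and a black bar at the median, for live and fixed cells of both lines. MET stood higher in fixed HCT-116 cells (median 24.7 TPM) than in live ones (15.3 TPM), DDR1 stood lower in fixed cells of both lines, and EGFR and MST1R sat at 0 TPM in most HepG2-labelled cells.

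The first of the epidermal growth factor receptors, EGFR, binds EGF, TGFA, AREG and EREG. Its level in HCT-116 was 9.48 ± 8.35 TPM (SD, n = 91 cells) in live cells, from 0 through a median of 7.83 to 32.4 TPM, and 6.01 ± 7.94 TPM (SD, n = 92 cells) in fixed cells, from 0 through 3.47 to 45.03 TPM. The log2 ratio was −0.66 and the ranges overlapped. The share of cells above 0 TPM was 94.5% in live cells (exact Clopper-Pearson 95% interval 87.6% to 98.2%) and 79.3% in fixed cells (69.6% to 87.1%), intervals that did not overlap. In HepG2-labelled cells EGFR was at 0.898 ± 2.04 TPM (SD, n = 68 cells) live and 0.496 ± 1.46 TPM (SD, n = 83 cells) fixed, with a median of 0 TPM in both groups and shares of 38.2% (26.7% to 50.8%) and 25.3% (16.4% to 36.04%). These intervals, like all that follow, cover counting error only. Fixed cells had fewer genes above 0 TPM in general. No share of all genes with intervals that do not overlap is given to set beside EGFR or the later members.

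ERBB2 binds no ligand of its own and acts as the partner of the other family members. In HCT-116 it was at 6.33 ± 4.79 TPM (SD, n = 91 cells) in live cells, with a median of 5.06 and a highest cell of 24.7 TPM, and at 2.68 ± 3.15 TPM (SD, n = 92 cells) in fixed cells, with a median of 1.91 and a highest cell of 13.6 TPM. The live mean was 2.36-fold higher (log2 ratio of fixed to live −1.24), and cells of both groups reached 0 TPM. The log2 ratio was −0.80, inside 2-fold, where only the 35 live and 33 fixed cells with 1.5 to 2.5 M reads were used. The share of cells above 0 TPM was 96.7% live (90.7% to 99.3%) and 75% fixed (64.9% to 83.4%). In HepG2-labelled cells the means were closer, 6.88 ± 4.43 TPM (SD, n = 68 cells) live and 5.46 ± 6.27 TPM (SD, n = 83 cells) fixed, a log2 ratio of −0.33, while the median cell had 5.93 TPM live and 2.79 TPM fixed. Fixed HepG2-labelled cells thus spread more widely around a similar mean.

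ERBB3 depends on its partners for phosphorylation and binds neuregulins. It was the member with the highest mean in HepG2-labelled cells, at 33.96 ± 18.8 TPM (SD, n = 68 cells) live, from 0 through a median of 30.7 to 127.1 TPM, and 28.2 ± 17.2 TPM (SD, n = 83 cells) fixed, from 0.941 through 24.9 to 81.4 TPM. All 83 fixed cells and 67 of 68 live cells were above 0 TPM, and the log2 ratio was −0.27. In HCT-116 it was at 6.76 ± 6.30 TPM (SD, n = 91 cells) live and 5.38 ± 7.61 TPM (SD, n = 92 cells) fixed, a log2 ratio of −0.33, while the medians were 5.50 and 2.52 TPM. Cells above 0 TPM made up 87.9% of the live group (79.4% to 93.8%) and 76.1% of the fixed group (66.1% to 84.4%), with overlapping intervals.

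ERBB4, the neuregulin receptor with a full kinase, is listed only for the HepG2-labelled cells and was low there. It stood at 0.731 ± 1.18 TPM (SD, n = 68 cells) live, with a median of 0.218 and a highest cell of 6.01 TPM, and at 1.16 ± 2.13 TPM (SD, n = 83 cells) fixed, with a median of 0.292 and a highest cell of 13.4 TPM. The log2 ratio was 0.67 and the difference of the means was smaller than either SD. Cells above 0 TPM made up 64.7% and 65.1%, but cells above 1 TPM only 23.5% and 33.7%. The matched ERBB4 transcripts held at least 1 estimated read in 25 of 68 live and 35 of 83 fixed cells.

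Among the insulin receptors, IGF1R, which binds the insulin-like growth factors, was at 9.91 ± 6.25 TPM (SD, n = 68 cells) in live and 10.1 ± 7.50 TPM (SD, n = 83 cells) in fixed HepG2-labelled cells. It was above 0 TPM in every one of these cells, with medians of 8.45 and 8.40 TPM. The log2 ratio was 0.03 and lay below 0 under 5 of 8 other settings, so no direction is given. In HCT-116 it was at 0.398 ± 0.714 TPM (SD, n = 91 cells) live and 0.515 ± 1.301 TPM (SD, n = 92 cells) fixed, with a median of 0 TPM in both groups and shares above 0 TPM of 41.8% (31.5% to 52.6%) and 32.6% (23.2% to 43.2%). The intervals overlapped, and the log2 ratio of 0.37 turned to −0.14 on the log2(TPM + 0.1) scale.

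INSR, the insulin receptor, was one of the members with a higher mean in fixed HCT-116 cells: 0.934 ± 0.959 TPM (SD, n = 91 cells) live, with a median of 0.672 and a highest cell of 3.87 TPM, against 1.51 ± 1.48 TPM (SD, n = 92 cells) fixed, with a median of 1.07 and a highest cell of 6.86 TPM. The log2 ratio was 0.69, which is inside 2-fold, and 91.1% of the genes at that level had a lower ratio. The share of cells above 0 TPM was 76.9% live (66.9% to 85.1%) and 85.9% fixed (77.05% to 92.3%), with overlapping intervals. In HepG2-labelled cells it was at 4.21 ± 3.76 TPM (SD, n = 68 cells) live and 4.22 ± 4.46 TPM (SD, n = 83 cells) fixed, with medians of 3.32 and 3.13 TPM. That log2 ratio, 0.01, lay below 0 under 7 of 9 other settings.

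MET, the receptor of hepatocyte growth factor, was found in all cells of HCT-116. Live cells had 16.96 ± 9.50 TPM (SD, n = 91 cells), from 0.265 through a median of 15.3 to 49.04 TPM, and fixed cells 27.1 ± 14.8 TPM (SD, n = 92 cells), from 6.73 through 24.7 to 80.7 TPM. The log2 ratio was 0.67, inside 2-fold, with 90.7% of genes below it, and the groups overlapped over most of their range. It stayed above 0 under all 6 other settings, from 0.35 to 0.77. In HepG2-labelled cells MET was at 3.61 ± 3.19 TPM (SD, n = 68 cells) live and 5.52 ± 5.66 TPM (SD, n = 83 cells) fixed, a log2 ratio of 0.61, with shares above 0 TPM of 94.1% (85.6% to 98.4%) and 84.3% (74.7% to 91.4%).

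MST1R, the receptor of macrophage-stimulating protein, stood at the other end of the range. In HCT-116 it was at 8.34 ± 6.19 TPM (SD, n = 91 cells) live, with a median of 7.58 and a highest cell of 30.97 TPM, and at 2.48 ± 2.90 TPM (SD, n = 92 cells) fixed, with a median of 1.67 and a highest cell of 11.9 TPM. The live mean was 3.37-fold higher (log2 ratio of fixed to live −1.75), the lowest ratio among the members in that line, with 3.68% of genes below it. The share of cells above 0 TPM was 96.7% live (90.7% to 99.3%) and 68.5% fixed (57.96% to 77.8%), which did not overlap. In HepG2-labelled cells it was at 0.637 ± 1.16 TPM (SD, n = 68 cells) live and 0.214 ± 0.875 TPM (SD, n = 83 cells) fixed, with 32.4% (21.5% to 44.8%) and 14.5% (7.70% to 23.9%) of the cells above 0 TPM. There MST1R was under 1 TPM in both groups and given no call, and its log2 ratio of −1.57 was −0.32 on the log2(TPM + 1) scale.

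DDR1, a receptor for collagen, was above 6 TPM in every live HCT-116 cell: 25.7 ± 13.3 TPM (SD, n = 91 cells), from 6.17 through a median of 23.9 to 69.5 TPM. Fixed HCT-116 cells had 12.2 ± 8.57 TPM (SD, n = 92 cells), from 0 through 11.2 to 37.5 TPM, so the live mean was 2.11-fold higher (log2 ratio of fixed to live −1.08). In HepG2-labelled cells it was at 29.7 ± 13.8 TPM (SD, n = 68 cells) live, with a median of 27.5 TPM, and 14.9 ± 12.3 TPM (SD, n = 83 cells) fixed, with a median of 11.9 TPM. The fixed mean was 0.501 of the live mean, just inside the 2-fold limit. Its log2 ratio, −0.997 from mean TPM, lay past 2-fold under 6 of 9 other settings, down to −1.40 on the log2(TPM + 0.1) scale, and inside it under the other 3. On the CPM scale (read counts scaled to the reads of the cell, not divided by length), over the matched transcripts, the log2 ratios were −0.69 in HCT-116 and −0.82 in HepG2-labelled cells, both inside 2-fold.

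EPHB4, a receptor for ephrins on neighbouring cells, was at 3.08 ± 2.94 TPM (SD, n = 91 cells) in live and 2.30 ± 3.06 TPM (SD, n = 92 cells) in fixed HCT-116 cells, a log2 ratio of −0.42, with medians of 2.69 and 1.295 TPM. Its share of cells above 0 TPM was 82.4% live (73.02% to 89.6%) and 64.1% fixed (53.5% to 73.9%), whose intervals overlapped narrowly. In HepG2-labelled cells it was at 3.45 ± 2.39 TPM (SD, n = 68 cells) and 3.02 ± 2.83 TPM (SD, n = 83 cells), a log2 ratio of −0.19. There the shares were 95.6% (87.6% to 99.1%) and 83.1% (73.3% to 90.5%).

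**Figure D2:**
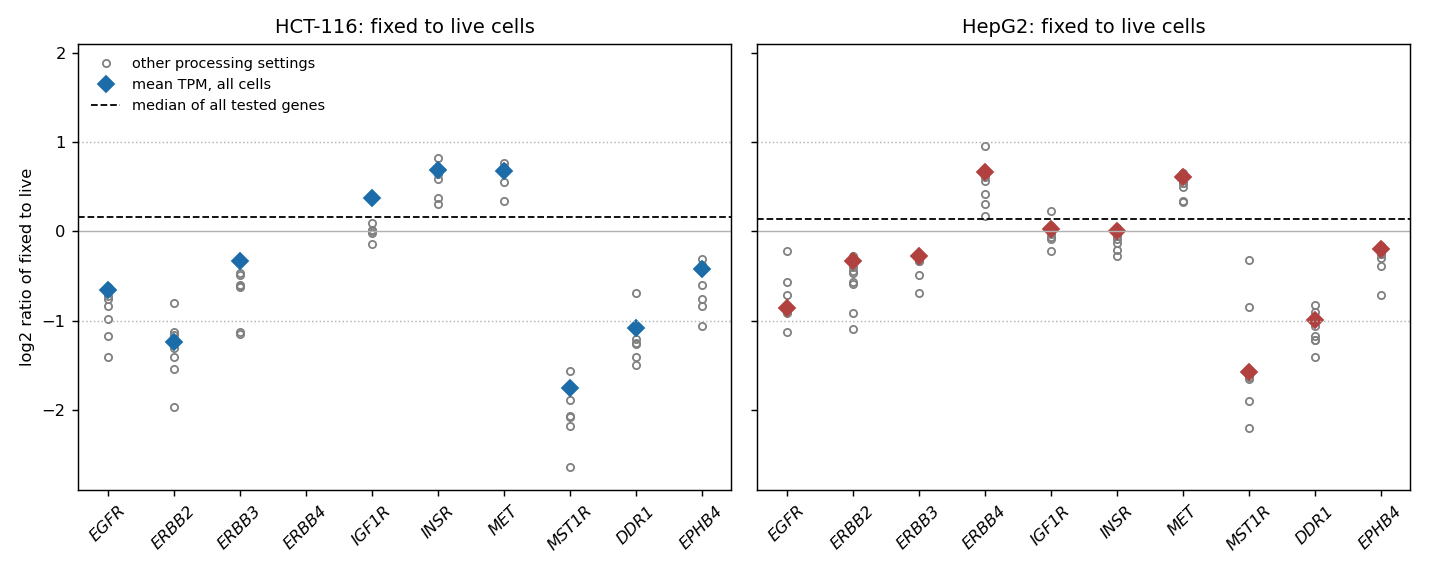
Log2 ratio of fixed to live cells for each receptor gene in both lines, from mean TPM over all cells (diamonds) and under the other processing settings (open circles), with the median of all tested genes as a dashed line and 2-fold as dotted lines. MST1R, ERBB2 and DDR1 in HCT-116 lay at or beyond the lower 2-fold line under most settings, MET and INSR lay above 0 in HCT-116, and INSR and IGF1R in HepG2-labelled cells sat on both sides of 0.

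The shares of cells above 0 TPM were set at 1 depth as well, since fixed cells had fewer reads. With every cell thinned to 500000 reads, which left out 3 fixed HCT-116 cells, the expected shares in live and fixed HCT-116 cells were 92.8% and 76.4% for EGFR, 93.9% and 68.4% for ERBB2, 82.01% and 64.1% for ERBB3, and 73.1% and 59.7% for EPHB4. INSR kept the other order, with 66.4% live and 77.1% fixed, but among HCT-116 cells with 1.5 to 2.5 M reads it was above 0 TPM in 28 of 35 live and 27 of 33 fixed cells (80% and 81.8%). In HepG2-labelled cells the thinned shares were 90.7% and 82.9% for ERBB2, 91.4% and 77.4% for EPHB4, and 97.2% and 93.3% for INSR. Transcripts of MST1R were not fully matched and could not be thinned. Among cells with 1.5 to 2.5 M reads MST1R was above 0 TPM in 34 of 35 live and 21 of 33 fixed HCT-116 cells. The intervals of these MST1R shares did not overlap. Among the same cells EGFR was above 0 TPM in 33 of 35 live and 26 of 33 fixed cells. For ERBB2 the counts were 33 of 35 and 28 of 33. The intervals of EGFR and of ERBB2 overlapped there, unlike those over all HCT-116 cells.

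**Figure D3:**
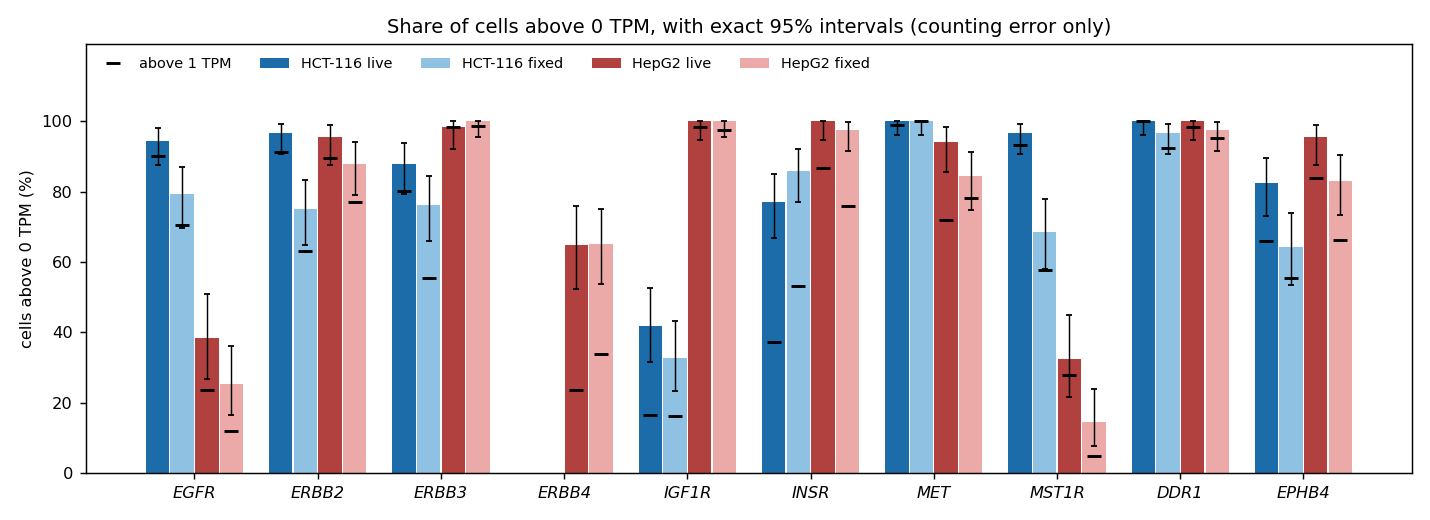
Share of cells above 0 TPM in percent for each receptor gene in live and fixed cells of both lines, with exact 95% intervals as error bars and the share above 1 TPM as a black dash. The intervals of live and fixed HCT-116 cells do not overlap for EGFR, ERBB2 and MST1R. Fixed HCT-116 cells had fewer genes above 0 TPM in general (median 10359 against 12031 live). No share of all genes with such intervals is given beside these members. Among HCT-116 cells with similar total reads the intervals overlapped for EGFR (33 of 35 live, 26 of 33 fixed) and ERBB2 (33 of 35, 28 of 33). Those of MST1R did not overlap there. MET and DDR1 were found in at least 96.7% of HCT-116 cells.

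The rank of the receptors within a cell differed between live and fixed cells in HCT-116. The mean TPM of the members summed to 77.99 live and 60.1 fixed in HCT-116. DDR1 held 32.96% of that sum and MET 21.7% in live cells, while MET held 45.01% and DDR1 20.3% in fixed cells. DDR1 was the highest member in 47 and MET in 24 of 91 live cells, against 13 and 70 of 92 fixed cells. In HepG2-labelled cells the sums were 93.97 and 73.3 TPM, and ERBB3 held 36.1% live and 38.5% fixed. ERBB3 was the highest member in 38 and DDR1 in 29 of 68 live cells, against 65 and 10 of 83 fixed cells. In live HCT-116 cells no 2 members next to each other in the order of means were apart by more than the larger of their SDs. In fixed HCT-116 cells MET and DDR1 were, but only just, by 14.88 TPM against an SD of 14.79 TPM.

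Receptors that act as pairs were also counted in the same cell. ERBB2 and ERBB3, which form a strongly signalling pair, were both above 0 TPM in 78 of 91 live HCT-116 cells (85.7%, 76.8% to 92.2%) and in 51 of 92 fixed cells (55.4%, 44.7% to 65.8%). In HepG2-labelled cells both were found in 95.6% of live and 87.95% of fixed cells. EGFR and MET were both found in 94.5% of live and 79.3% of fixed HCT-116 cells, and in 35.3% and 25.3% of HepG2-labelled cells. In HCT-116 these are the shares of EGFR alone, since MET was above 0 TPM in every cell. Counts of pairs depend on the share of each gene, and whether any pair occurred together more often than those shares give was not tested. A live HCT-116 cell had a median of 8 members above 0 TPM (6 to 9), and a fixed one 7 (2 to 9).

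The lines differed in which receptors they carried. The gene tables of the lines are separate, TPM is scaled within each cell, and line and experiment cannot be told apart. In live cells 6 of 9 members were past 2-fold, against 44% of 13560 genes, and in fixed cells 7 of 9, against 43.2% of 13228 genes. Live, 3 of 9 members were lower in HepG2-labelled than in HCT-116 cells past 2-fold, against 19.5% of genes: EGFR (log2 ratio −3.40), MET (−2.23) and MST1R (−3.71). A further 3 of 9 were higher, against 24.5% of genes: ERBB3 (2.33), IGF1R (4.64) and INSR (2.17). ERBB2 (0.12), DDR1 (0.21) and EPHB4 (0.17) were within 2-fold. With ribosomal RNA left out their live ratios were −0.21, −0.14 and −0.20, and the median gene moved from 0.10 to −0.27. In fixed cells EGFR, MET and MST1R were again lower, at −3.60, −2.29 and −3.53, against 19.1% of genes. A further 4 of 9 were higher in fixed cells, against 24.1%: ERBB3 (2.39), IGF1R (4.30), INSR (1.49) and ERBB2, which was just outside the limit at 1.02. With the levels of all 4 groups in order, neighbouring groups were apart by more than the larger SD for 3 members: ERBB3 between fixed HepG2-labelled and live HCT-116 cells, IGF1R between live HepG2-labelled and fixed HCT-116 cells, and MET between live HCT-116 and fixed HepG2-labelled cells. Groups not next to each other in that order, such as live and fixed HCT-116 cells for DDR1, were not compared in this way. No share of all genes is given beside this count.

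The transcripts matched to MET did not cover every HepG2-labelled cell with a level of the gene. There 24 of 64 live and 16 of 70 fixed cells with MET above 0 TPM had no value on any matched MET transcript, and the matched ones held at least 1 estimated read in 26 and 32 cells. Over the 5 matched transcripts the mean was 53.4 CPM live and 96.5 CPM fixed in HCT-116, against 2.31 and 2.81 CPM in HepG2-labelled cells. On that scale the log2 ratio between the lines was −4.53 in live cells, lower than the −2.23 found for TPM. NM_000245, the reference MET transcript, had a mean of 20.7 CPM live and 58.2 CPM fixed in HCT-116. In HepG2-labelled cells it was at 0 CPM in live cells and at a mean of 0.0815 CPM in fixed cells, above 0 in 3 of them. There NM_001324401 held 100% of the summed matched CPM live and 96.4% fixed.

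Base composition of the reference transcript varied with the ratio of fixed to live. MST1R (59.9% GC), ERBB2 (60.4%), DDR1 (61.4%) and EPHB4 (62.6%) are the most GC-rich members, and all 4 had lower means in fixed cells in both lines, from −0.42 to −1.75 in HCT-116 and from −0.19 to −1.57 in HepG2-labelled cells. ERBB4 (39.6% GC) and MET (43.5%) are the least GC-rich, and both had higher means in fixed cells wherever they are listed. EGFR, with 47.8% GC, went against this order at −0.66 and −0.86. Over the members, Spearman's rho between GC content and the log2 ratio was −0.57 (n = 9 genes) in HCT-116 and −0.58 (n = 10 genes) in HepG2-labelled cells. These members include IGF1R in HCT-116 and EGFR and MST1R in HepG2-labelled cells, all under 1 TPM. Over all genes with a mean of at least 1 TPM and a reference transcript it was −0.47 (n = 11501 genes) and −0.29 (n = 11943 genes). The 2 sets thus differ in level, and genes are not independent replicates. The most GC-rich quintile of those genes had a median log2 ratio of −0.52 in HCT-116 and −0.27 in HepG2-labelled cells, with 29.4% and 24.9% of its genes lower past 2-fold. EPHB4 lay above the median of that quintile in both lines, at −0.42 and −0.19, and ERBB2 (−1.24 and −0.33), MST1R (−1.75 and −1.57) and DDR1 (−1.08 and −0.997) lay below it, with no test of the difference. MST1R in HepG2-labelled cells was under 1 TPM, unlike the genes of the quintile, and had −0.32 on the log2(TPM + 1) scale.

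**Figure D4:**
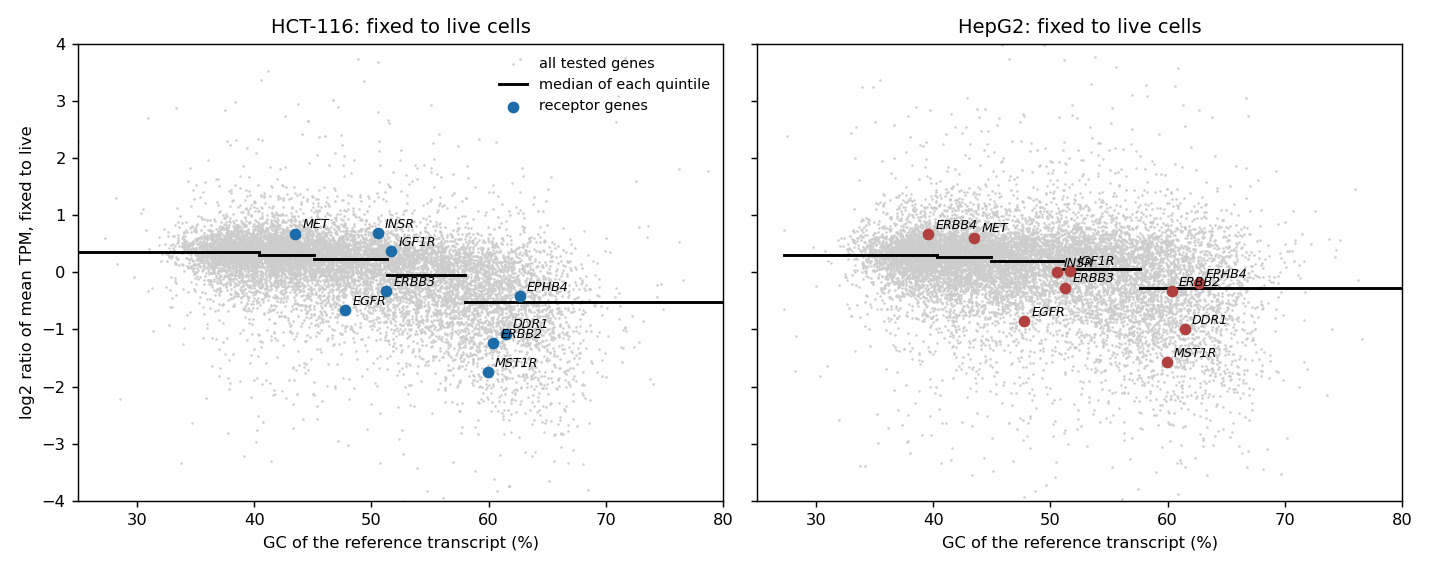
Log2 ratio of mean TPM of fixed to live cells against the GC content of the reference transcript in percent, with all tested genes as grey points, the median of each GC quintile as a black line and the receptor genes as labelled points; a few genes lie beyond the axes. The median falls from 0.35 in the lowest to −0.52 in the highest quintile in HCT-116 and from 0.30 to −0.27 in HepG2, and the 4 most GC-rich receptors lie below 0 in both lines.

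Transcript length varied with the ratio among the members but not over all genes. The longest reference transcripts are those of IGF1R (12235 bases), ERBB4 (12097), EGFR (9905) and INSR (9463), and the shortest that of DDR1 (3836). Spearman's rho between length and the log2 ratio was 0.57 (n = 9 genes) and 0.60 (n = 10 genes) over the members, whatever their level. It was 0.00 in both lines over all genes with a mean of at least 1 TPM. Among the members the short transcripts are also the GC-rich ones, so length and GC content cannot be told apart there.

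Isoforms were compared as shares of the CPM within a gene, for EGFR, ERBB2, ERBB3, INSR and EPHB4, where every cell above 0 TPM held at least 1 estimated read on the matched transcripts, and for DDR1, where 89 of 91 live and 88 of 89 fixed HCT-116 cells and all 68 live and 80 of 81 fixed HepG2-labelled cells did. The values of DDR1 thus rest on a set of transcripts that is not complete in every cell. INSR occurs as a form without exon 11, which also binds insulin-like growth factor 2, and a form with it, typical of liver. The 36 bases of exon 11 (chr19:7150497-7150532, minus strand, GRCh38) are printed because their presence tells the pair apart.
INSR exon 11: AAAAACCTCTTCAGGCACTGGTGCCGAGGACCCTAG
Cells with at least 3 estimated reads on the pair were counted. The form without the exon had more estimated reads in all 55 such live and all 69 such fixed HCT-116 cells. It also had more in 65 of 67 live HepG2-labelled cells (97.0%, 89.6% to 99.6%) and in all 76 fixed ones. Of the summed estimated reads on the pair it took 98.1% live and 98.05% fixed in HCT-116, and 91.4% and 98.3% in HepG2-labelled cells. These reads were assigned to whole transcripts, and reads over exon 11 itself were not counted.

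Among EPHB4, ERBB2 and DDR1 the split between transcripts differed between live and fixed cells. For EPHB4, the predicted transcript XM_017011816 had a mean share of 48.3% live and 89.8% fixed in HCT-116, and of 71.4% and 92.2% in HepG2-labelled cells, the rest being NM_004444, the curated form. For ERBB2 the reference transcript NM_004448 had 77.3% live and 48.1% fixed in HCT-116, while NM_001289937 had 13.01% and 40.02%. In HepG2-labelled cells NM_004448 had 64.9% and 56.3%, and NM_001289937 15.1% and 32.1%. As shares of the summed CPM, to which cells with many reads add more, NM_004448 had 71.1% live and 76.99% fixed there and NM_001289937 6.88% and 10.7%, so the order of live and fixed turned for the first. For DDR1, NM_001202522 had 4.39% in live and 37.7% in fixed HepG2-labelled cells and 25.3% in fixed HCT-116 cells. These shares rest on few reads in fixed cells: the median fixed HCT-116 cell had 9.5 estimated reads on ERBB2 and 5.5 on EPHB4, against 42 and 17 in the median live cell.

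ERBB3 and EGFR also have forms that lack the kinase and are released from the cell. The short form of ERBB3, NM_001005915, had 22.7% live and 30.1% fixed in HCT-116 and 5.20% and 12.5% in HepG2-labelled cells. A short form of EGFR, NM_201282, had 19.8% and 17.4% in HCT-116, and NM_005228, the full-length form, had 74.2% and 72.9%. The remaining EGFR transcripts went the other way, NM_201283 with 5.53% and 8.70% and NM_201284 with 0.478% and 1.05%. Between live and fixed HCT-116 cells the share of the full-length form thus differed less for EGFR than for ERBB2.

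**Figure D5:**
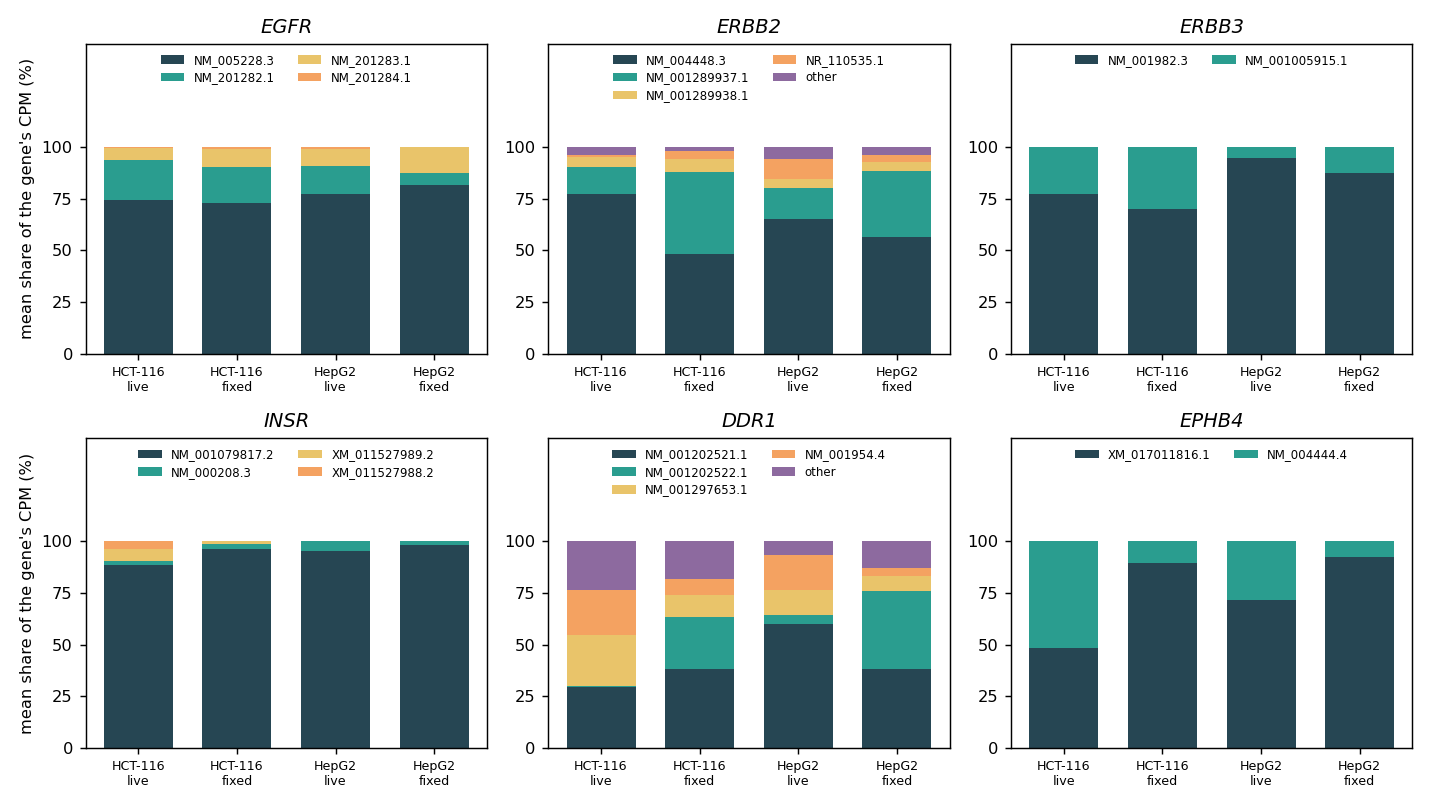
Mean share of the CPM of each gene held by its RefSeq transcripts, in percent, over cells with the gene, for live and fixed cells of both lines; the 4 transcripts with the highest share are named and the rest summed. NM_001079817, the form of INSR without exon 11, held at least 88.8% in all 4 groups, whereas XM_017011816 of EPHB4 held 48.3% live and 89.8% fixed in HCT-116.

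Of 48 other receptor tyrosine kinases, 13 had a mean of at least 1 TPM in HCT-116, of which 6 were lower in fixed cells past 2-fold and 0 higher, against 10.1% and 3.81% of all genes, with a median log2 ratio of −0.95 against 0.16. In HepG2-labelled cells 3 of 14 were lower and 0 higher, against 11.3% and 5.98% of all genes, with a median of −0.37 against 0.14. PTK7, a receptor of the planar polarity pathway without kinase activity, was past 2-fold lower in both lines, at 20.8 TPM live and 4.48 TPM fixed (log2 ratio −2.22) in HCT-116 and at 5.32 and 1.25 TPM (−2.09) in HepG2-labelled cells. FGFR4, a fibroblast growth factor receptor, had −1.15 and −2.71. EPHA2, an ephrin receptor, went from 33 to 11.6 TPM in HCT-116 (−1.51) and had −0.47 in HepG2-labelled cells. RET, the receptor of glial cell line-derived factors, was highest in live HepG2-labelled cells at 15.97 TPM and at 3.86 TPM in fixed ones (−2.05). AXL, a receptor of GAS6, was above 0 TPM in all cells of all groups, at 43.4 and 49.6 TPM in HCT-116 and 19.1 and 36.3 TPM in HepG2-labelled cells, log2 ratios of 0.19 and 0.93.

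Of 21 ligands, 8 were at the required level in HCT-116 and 1 was lower past 2-fold in fixed cells, and 0 of 4 were past 2-fold in HepG2-labelled cells, against 10.1% and 11.3% of all genes lower and 3.81% and 5.98% higher. The EGFR ligands AREG and EREG were abundant in HCT-116, at 134.4 and 100.8 TPM in live cells and 143.5 and 129.5 TPM in fixed cells. In HepG2-labelled cells AREG was at 14.3 and 23.7 TPM and EREG at 0.0690 and 0.118 TPM, so the line with more EGFR was also the one with more of these ligands. TGFA, a further ligand of EGFR, was at 12.9 and 11.5 TPM in HCT-116 and 1.22 and 1.64 TPM in HepG2-labelled cells. Across the lines 5 of 8 ligands in live and 5 of 7 in fixed cells were lower in HepG2-labelled cells past 2-fold, against 19.5% and 19.1% of all genes.

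The counts of the lists that follow stand against the same shares of all genes, 10.1% lower and 3.81% higher in fixed HCT-116 cells and 11.3% and 5.98% in fixed HepG2-labelled cells. Of 10 genes of receptor processing and shedding, 1 of 10 was lower in fixed HCT-116 cells past 2-fold and 2 of 9 in fixed HepG2-labelled cells, with 0 higher. PCSK7, a proprotein convertase, was lower in both, at −1.32 and −1.18. HSP90B1 and CANX, chaperones of the endoplasmic reticulum, and NCSTN, a subunit of gamma-secretase, had ratios within 2-fold in both lines (−0.66 to 0.38). Of 18 adaptors and docking proteins, 2 of 12 were lower and 1 higher in HCT-116, and 0 of 15 lower and 2 higher in HepG2-labelled cells. GRB2 had −0.69 and −0.30, SHC1 −0.93 and −0.59, and PTPN11, the phosphatase SHP2, 0.16 and 0.22.

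Of 12 genes of the RAS-MAPK cascade, all at the required level in both lines, 0 were lower and 1 was higher in fixed cells of each line, against 10.1% and 11.3% of all genes lower and 3.81% and 5.98% higher, with medians of 0.14 in HCT-116 and 0.27 in HepG2-labelled cells. NRAS, a RAS protein, had log2 ratios of 0.19 and 0.41, and ARAF, a kinase of the cascade, 0.04 and 0.23. Of 13 genes of the PI3K-AKT cascade, 2 of 12 were lower and 1 higher in HCT-116, and 1 of 11 lower and 1 higher in HepG2-labelled cells. TSC2, which holds back mTORC1, was lower in both (−1.35 and −1.24). AKT1 had 1.19 and 0.48, AKT2 −1.28 and −0.34, and RPS6KB1, the S6 kinase, 0.14 and 0.08. Of 21 negative regulators, 1 of 19 was lower and 0 higher in HCT-116, and 1 of 15 lower and 1 higher in HepG2-labelled cells. ERRFI1, an inhibitor of EGFR, was at 194 and 232 TPM in HCT-116 and 3.89 and 4.86 TPM in HepG2-labelled cells, and DUSP6, a phosphatase of ERK, at 62.8 and 41.6 TPM and 1.99 and 0.9496 TPM. PTPN1, which dephosphorylates INSR, had −0.46 and −0.36.

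Across single cells the members varied largely apart from each other. Over all pairs of members, Spearman's rho of log2(TPM + 1) had a median of 0.02 live and 0.02 fixed in HCT-116 (36 pairs each) and of 0.06 and 0.10 in HepG2-labelled cells (45 pairs each). The highest value was 0.50, between EGFR and MST1R in fixed HepG2-labelled cells, where both genes are at 0 TPM in most cells, and it is no finding in such sparse values. Among 8945 genes found in at least 50% of the cells of every group, CTSD was the most like DDR1, with a mean rho of 0.34 over the 4 groups, followed by CORO1B at 0.32. SDF4 (0.32) and MINK1 (0.30) were the most like ERBB2, ACAA1 (0.29) and HID1 (0.27) the most like ERBB3, and HUWE1 (0.25) and CXCL16 (0.24) the most like INSR. CYB5R3 (0.26) and C21orf59 (0.24) came first for EPHB4, and CSNK1A1 (0.21) and IDE (0.20) for MET. All of these are weak, and cells of a group share library preparation and depth.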

How the data were processed

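Single cells were sequenced with Smart-seq2. The authors quantified reads with kallisto 0.46.0 (per the submitters' processing notes, with GRCh38), summed transcripts to genes with tximport, kept cells with more than 4000 genes and deposited TPM per gene. The deposited transcript values are CPM (estimated reads as a part of all reads of the cell, not divided by length); total reads were recovered from their steps to the nearest 0.1 M, and fractional values remained where reads were shared among transcripts. Of 346 labelled cells, 334 have a column and 12 do not. Cells had been sorted as singlets and no doublet caller was run.

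Members, lists and tests were chosen with earlier results of these data known. Log2 ratios are of mean TPM over cells; a gene was scored where either group had a mean of at least 1 TPM and called past 2-fold. Shares carry exact Clopper-Pearson 95% intervals. GC content and length are those of the MANE Select or canonical transcript (GENCODE release 44), found for 92.6% of scored HCT-116 and 90.3% of HepG2 genes; transcripts were matched to genes by RefSeq accession. Reference sequences are GRCh38. The lists cover other receptor tyrosine kinases, ligands, processing, adaptors, both cascades, negative regulators and markers. Named genes are the members, other receptor kinases with a mean of at least 10 TPM in any group, in each list the genes past 2-fold the same way in both lines and the 3 highest by mean, and for members above 0 TPM in at least 50% of the cells of each group the 2 genes most like them by mean Spearman's rho; a gene that the rule names is not reported here. Tables were computed with pandas 2.3.3, numpy 2.4.6 and scipy 1.17.1 under Python 3.11.15, plots drawn with matplotlib 3.10.9, and the ratio tested on simulated data.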

Additional observations from a re-analysis of the deposited data

How the results depend on the processing

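The number of members lower past 2-fold in fixed HCT-116 cells, 3 from mean TPM, was 5 from the mean of log2(TPM + 0.1) and 6 from the median TPM over cells, where the median log2 ratio of the members was −1.15 and −1.11. In HepG2-labelled cells the number, 0 from mean TPM, was 2 with TPM rescaled by the median ratio over broadly found genes and 2 from median TPM; it was 1 with ribosomal RNA left out, 1 from the mean of log2(TPM + 1), 1 from that of log2(TPM + 0.1) and 1 without the columns with equal values. On the log scales a gene at 0 TPM in more fixed cells weighs more, by construction. The counts between lines stayed within 1.5 times, from 5 to 7, under every setting tried. Beside these 10 values, 34 other counts and medians over the members moved by no more than 1.5 times (counts) or 0.5 (log2 ratios). Of the values of single members, transcripts and all-gene shares, 73 moved past the same limits, or past the 95% interval or 10 points for shares, and 398 did not. Without a filter on low values 15.1% of genes in HCT-116 and 19.5% in HepG2 were lower past 2-fold, and 10.0% and 9.97% higher. With ribosomal RNA left out the median gene in HCT-116 had a log2 ratio of −0.18, and 65.5% of genes lay below 0. Leaving out all very similar columns, the CPM scale, a limit of 1 estimated read and shares within a window of depth were chosen after seeing the data. Without the similar columns the count in HepG2-labelled cells was 0. No paired analysis was possible because the table columns carry other numbers than the labels and no result comes from a test. No replicate culture can be told apart in the labels, so the spread between cultures is unknown, and EGFR and MST1R in HepG2-labelled and IGF1R in HCT-116 cells had a median of 0 estimated reads. Over the matched transcripts, medians in HepG2-labelled cells were also far under 1 estimated read for ERBB4 (0.0015 live, 0.0042 fixed) and MET (5.4e-08 live, 1.1e-07 fixed). Those matched sets were not complete.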
